A study of Homo sapiens with 12 samples.

Results

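The BCL2 family members described here are 10 genes that regulate apoptosis at the mitochondrion, found by their symbols among the 23284 gene symbols listed for PANC-1 pancreatic cancer cells. Of these, 5 act for survival (BCL2, BCL2L1, BCL2L2, MCL1 and BCL2A1) and 5 act for cell death (BAK1, BID, BIK, BCL2L11 and BMF). The p53 target genes PMAIP1, BBC3 and BAX were not among the 10. In the unit deposited, FPKM (fragments scaled to exon length and to the reads mapped), 9 of the 10 reached 1 in at least 2 libraries and were tested, and BMF did not.

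PANC-1 is an established human line of pancreatic ductal carcinoma. All cells carried a retroviral ZsGreen reporter fused to the degron of ornithine decarboxylase (ODC), were selected with G418 and were cultured in low-glucose medium. The proteasome destroys the fusion protein, so that fluorescence marks cells with low proteasome activity. Degron (−) cells were the infected population, nearly all of it without fluorescence, and degron (++) cells were the brightest part of a line enriched by repeated sorting and culture, so that each population stands for 1 derivation of 1 line. Each population had 3 groups, one unirradiated (0 Gy, taken at 48 h) and 2 given 4 Gy of gamma rays and taken at 30 or 48 h, and each of the 6 groups held 2 libraries, 12 in all. What event the hours start from is not given in the labels. As for the populations, the 6 degron (−) libraries were ZsGreen-negative by title but marked d+ in their descriptions and column headers, and the direction of every population comparison rests on the title.

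The BCL2 family decides whether the outer mitochondrial membrane is opened. BAK1, with its partner BAX, forms pores through which cytochrome c escapes to activate caspases. Pro-survival members hold these pore formers in check, and BH3-only proteins (BID, BIK, BIM and BMF) bind the groove of the pro-survival members or engage the pore formers directly. Pancreatic carcinoma cells commonly rely on BCL-xL, the product of BCL2L1, and on MCL1.

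In the pro-death members, the part that fits the groove is the BH3 segment. Its core is a leucine, 3 further residues, a glycine or alanine and an aspartate. In the longest coding sequence of each member in GENCODE v29, this pattern occurred once in 8 of the 10 members and was not found in BCL2L2 or BCL2A1. Of 5634 genes with coding sequences of 160 to 350 codons, the range of the members, 13.3% held it. The codons are shown for 5 members whose levels are compared below, since pro-survival BCL2L1 and 4 pro-death members share the amino-acid pattern. The codons of the leucine and the glycine vary among the 5, and BAK1 and BID have the same codons for both. BCL2, MCL1 and BMF hold the pattern too. Each stretch covers 36 bases of 1 exon in GRCh38, and capitals mark the codons of the leucine, the glycine and the aspartate.
BCL2L1, exon 2, chr20:31721925-31721960, minus strand: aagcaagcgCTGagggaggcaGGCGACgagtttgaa
BAK1, exon 4, chr6:33575390-33575425, minus strand: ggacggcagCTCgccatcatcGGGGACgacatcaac
BID, exon 4, chr22:17739418-17739453, minus strand: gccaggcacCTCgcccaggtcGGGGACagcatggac
BIK, exon 3, chr22:43127707-43127742, plus strand: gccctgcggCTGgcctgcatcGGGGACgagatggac
BCL2L11, exon 3, chr2:111150094-111150129, plus strand: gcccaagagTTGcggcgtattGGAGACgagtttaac

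Summed over all genes, degron (++) libraries held 829654 to 916877 FPKM and degron (−) libraries 707273 to 763064, and the depth in reads is unknown. MIR622 alone took 28.6% to 30.0% of that total in degron (++) libraries and 22.5% to 27.1% in the others. Of 7 epithelial markers of the line, all 7 reached 1 FPKM, and their summed level was 7202 to 8392 FPKM in degron (++) against 4270 to 5176 in degron (−). SOX9, one of the 7, went the other way, at 17.4 to 22.9 FPKM in degron (++) libraries and 35.6 to 43.9 in the others. The 5 fibroblast markers summed to 14.5 to 25.4 FPKM in degron (++), mainly LUM, and to 37.2 to 53.9 in degron (−), mainly COL1A1, with DCN listed at 0. Endothelial, acinar and islet lists stayed under 1 FPKM in sum in every library. The part of these differences in the population comparisons was not tested. Nothing in the labels says that the 2 libraries of a group came from separate cultures, so the p-values measure only the spread between these samples, which may be technical. In bulk RNA, a level per cell and a share of cells cannot be told apart.

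FPKM is a level per transcript length, so that members can be ranked. By the median over 6 libraries, BCL2L1 was the most abundant member in both populations, at 78.7 FPKM in degron (++) and 147 in degron (−) libraries. MCL1 followed at 75.5 and 72.6 FPKM. In both degron (++) libraries at 4 Gy and 30 h, MCL1 was above BCL2L1, at 78.9 against 78.8 FPKM and 81.3 against 77.5. In degron (++), the ranges of BCL2L1 (76.8 to 88.8 FPKM) and MCL1 (74.6 to 81.3) overlapped, whereas in degron (−) they were apart, with BCL2L1 at 137 to 147 and MCL1 at 66.4 to 75.6. BID ranked next in both, at a median of 55.1 FPKM in degron (++) and 28.6 in degron (−). BIK took the next place in degron (++) at 23.2 FPKM, and BCL2A1 took it in degron (−) at 23.7. The ranges of BCL2L11 and BAK1 overlapped in degron (++), as did those of BID and BCL2A1, BCL2A1 and BCL2L2, BCL2L11 and BIK, and BMF and BCL2 in degron (−). BMF, a BH3-only protein linked to the cytoskeleton, lay between 0.279 and 0.655 FPKM in all 12 libraries, and its ranges in the 2 populations overlapped.

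**Figure D1:**
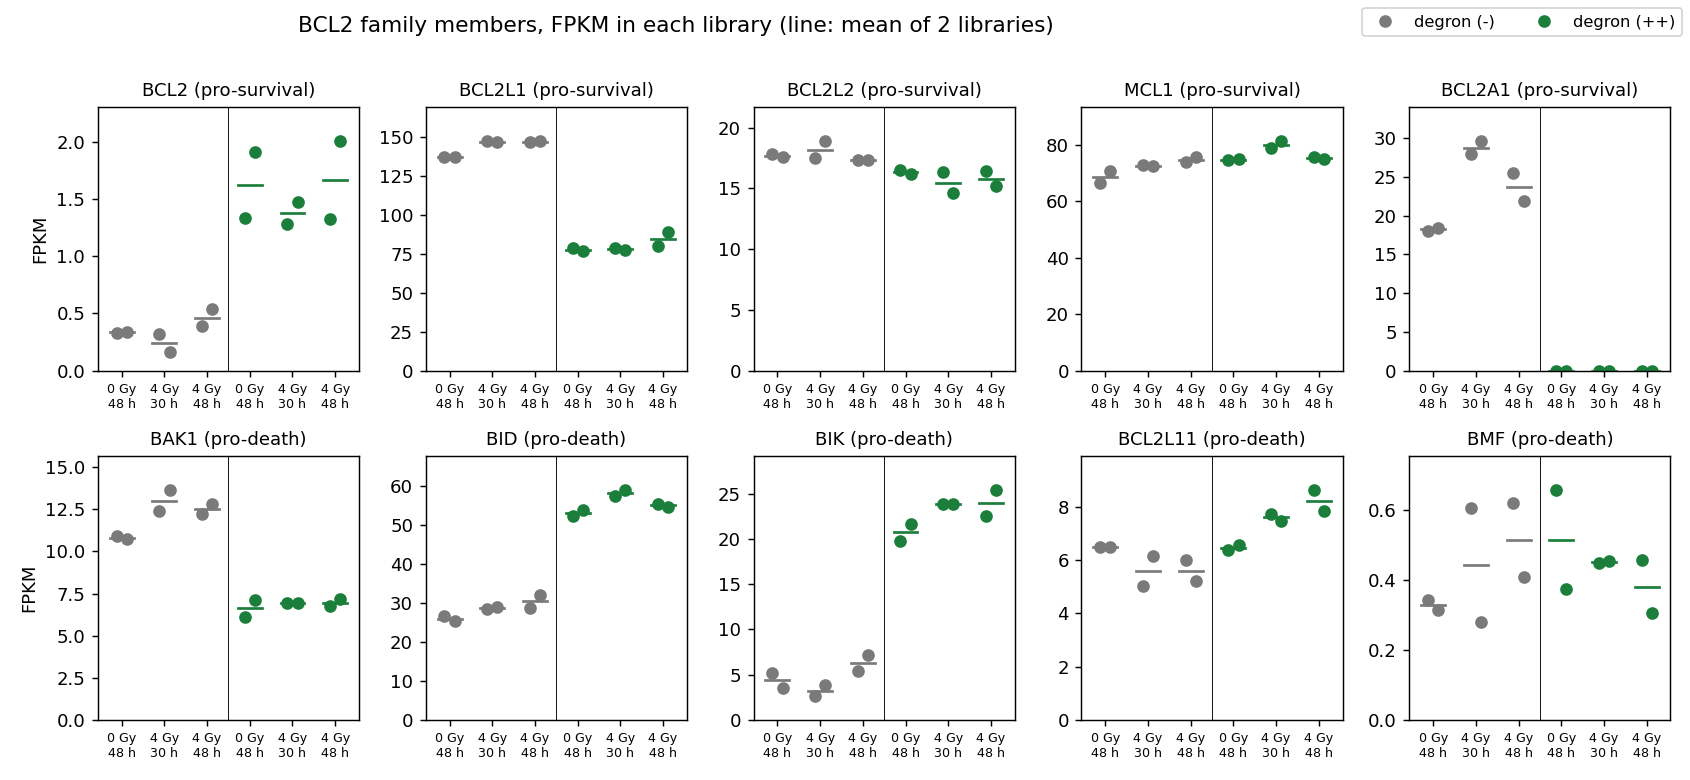
Level of each of the 10 members in each library (points, FPKM on a linear axis from 0), by dose and time, with degron (−) in grey, degron (++) in green and a line at the mean of the 2 libraries of a group. BCL2, BID and BIK were higher in all 6 degron (++) libraries, BCL2L1, BCL2L2, BCL2A1 and BAK1 were lower in all 6, and BMF overlapped.

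Which members differed between degron (++) and degron (−) cells was asked first, within each dose and time. Among the pro-survival members, BCL2L1 and BCL2A1 were lower in degron (++) cells in all 3 conditions and BCL2 was higher, while BCL2L2 and MCL1 differed by at most 0.22 on the log2 scale. Among the pro-death members, BID and BIK were higher and BAK1 was lower in all 3 conditions, and BCL2L11 passed the threshold in the 2 irradiated conditions, where it was higher.

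BCL2A1, a short-lived member of the family best known from blood cells and from NF-kB signalling, was listed at 0 FPKM in all 6 degron (++) libraries. In degron (−) it was 18.1 and 18.5 FPKM without irradiation, 27.9 and 29.6 at 4 Gy and 30 h, and 25.5 and 21.9 at 4 Gy and 48 h. No library of one population came near the other. On the log2(FPKM + 1) scale, on which the size depends on the pseudocount, the difference was -4.27 ± 0.08 (SE) at 0 Gy and 48 h (adjusted p = 2.65e-10), and in the irradiated conditions it was -4.89 at 30 h and -4.62 at 48 h, and no fold is given against a level of 0. BCL2A1 passed the filter on low values through its degron (−) libraries alone, so that among the genes tested it had to differ. Of 82 ribosomal protein genes, 2 were listed at 0 in all 12 libraries (RPL10L and RPS4Y2). The 5 leukocyte markers summed to 1.59 to 2.15 FPKM in degron (++) and 0.481 to 1.16 in degron (−), with CD3E at 0 throughout, and the only 1 to reach 1 FPKM in any library was CD14, at 1.45 to 1.92 in degron (++) and 0.187 to 1.02 in degron (−).

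BCL2L1, which encodes BCL-xL, was 78.6 and 76.8 FPKM in degron (++) at 0 Gy and 48 h against 137 in both degron (−) libraries. At 4 Gy and 30 h it was 78.8 and 77.5 FPKM against 147 in both, and at 4 Gy and 48 h 80.0 and 88.8 against 147 in both. The populations did not overlap in any condition. The level in degron (−) was 1.77 times that in degron (++) at 0 Gy (log2 difference -0.81 ± 0.04 SE, adjusted p = 2.5e-07), 1.88 times at 4 Gy and 30 h (adjusted p = 1.09e-07) and 1.74 times at 4 Gy and 48 h (adjusted p = 3.3e-07).

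BCL2, the founding member of the family, was low throughout. It was 1.33 and 1.90 FPKM in degron (++) at 0 Gy and 48 h against 0.33 and 0.34 in degron (−), a 4.84-fold difference of the means (log2 difference 0.96 ± 0.15 SE, adjusted p = 0.000269). In the irradiated groups it was 1.28 and 1.47 against 0.32 and 0.17 FPKM at 30 h (adjusted p = 0.000313) and 1.33 and 2.001 against 0.39 and 0.54 at 48 h (adjusted p = 0.000608). Every degron (++) library was above every degron (−) library, and the highest level was 2.001 FPKM in a pro-survival sum of at least 169.8 FPKM. The highest degron (−) library was at 0.537 FPKM, so that BCL2 passed the filter on low values only through degron (++), and among the genes tested it had to differ.

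MCL1, a survival protein with rapid turnover, was 74.6 and 74.9 FPKM in degron (++) against 66.4 and 70.9 in degron (−) at 0 Gy and 48 h. The difference was 0.12 ± 0.04 on the log2 scale (SE, adjusted p = 0.0128) and was 0.14 at 4 Gy and 30 h (adjusted p = 0.00677) and 0.01 at 4 Gy and 48 h (adjusted p = 0.732). With each library rescaled to an equal sum (TPM), the 3 differences turned to -0.08, -0.14 and -0.25, so that no direction is given for MCL1. BCL2L2, which encodes BCL-w, was 14.6 to 16.6 FPKM in degron (++) and 17.4 to 18.9 in degron (−), and passed the threshold at 4 Gy and 30 h (log2 difference -0.22 ± 0.06 SE, adjusted p = 0.00945) but not at 0 Gy (-0.11, adjusted p = 0.143) or at 4 Gy and 48 h (-0.13, adjusted p = 0.0874). With TPM it was lower by these last comparisons too (-0.31, adjusted p = 0.00279, and -0.38, adjusted p = 0.000762). Its call at 30 h was lost without either replicate 2 at 4 Gy and 30 h (adjusted p = 0.0772 without that of degron (++) and 0.0733 without that of degron (−)). BCL2L2 also shares exons with the listed readthrough gene BCL2L2-PABPN1, at 51.2 to 59.1 FPKM, so that its level is uncertain.

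BIK, a BH3-only protein of the endoplasmic reticulum, showed the widest gap of the pro-death members. It was 19.8 and 21.6 FPKM in degron (++) against 5.19 and 3.55 in degron (−) at 0 Gy and 48 h, 23.8 in both against 2.65 and 3.80 at 4 Gy and 30 h, and 22.6 and 25.4 against 5.43 and 7.20 at 4 Gy and 48 h. The lowest degron (++) library stood well above the highest degron (−) library. The means differed 4.74-fold at 0 Gy (log2 difference 2.03 ± 0.18 SE, adjusted p = 5.53e-06), 7.39-fold at 4 Gy and 30 h (adjusted p = 1e-06) and 3.79-fold at 4 Gy and 48 h (adjusted p = 1.47e-05).

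BID, which links death receptors to the mitochondrion once caspase-8 has cut it, was the most abundant pro-death member in both populations. It was 52.4 and 53.9 FPKM in degron (++) against 26.6 and 25.3 in degron (−) at 0 Gy and 48 h, 57.5 and 58.97 against 28.5 and 28.98 at 4 Gy and 30 h, and 55.5 and 54.8 against 28.7 and 32.2 at 4 Gy and 48 h. The populations were again apart, 2.05-fold at 0 Gy (log2 difference 1.01 ± 0.05 SE, adjusted p = 1.66e-07), 2.03-fold at 4 Gy and 30 h (adjusted p = 1.55e-07) and 1.81-fold at 4 Gy and 48 h (adjusted p = 6.16e-07).

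BAK1, the pore former, went the other way. It was 6.12 and 7.12 FPKM in degron (++) against 10.9 and 10.7 in degron (−) at 0 Gy and 48 h, 6.95 and 6.91 against 12.4 and 13.6 at 4 Gy and 30 h, and 6.73 and 7.18 against 12.2 and 12.8 at 4 Gy and 48 h. The degron (−) mean was 1.63 times that of degron (++) at 0 Gy (log2 difference -0.64 ± 0.07 SE, adjusted p = 3.68e-05), 1.88 times at 4 Gy and 30 h (adjusted p = 5.75e-06) and 1.80 times at 4 Gy and 48 h (adjusted p = 1.11e-05), with no overlap.

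BCL2L11, which encodes the BH3-only protein BIM, was alike at 0 Gy and 48 h, at 6.38 and 6.57 FPKM in degron (++) against 6.50 and 6.51 in degron (−) (log2 difference -0.01 ± 0.09 SE, adjusted p = 0.962). In the irradiated groups it was 7.75 and 7.47 against 5.02 and 6.16 FPKM at 30 h (log2 difference 0.39, adjusted p = 0.00349) and 8.63 and 7.85 against 6.02 and 5.21 at 48 h (0.48, adjusted p = 0.00106). The irradiated groups did not overlap between populations, and the unirradiated ones did. The call at 30 h was lost with TPM (0.15, adjusted p = 0.176).

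**Figure D2:**
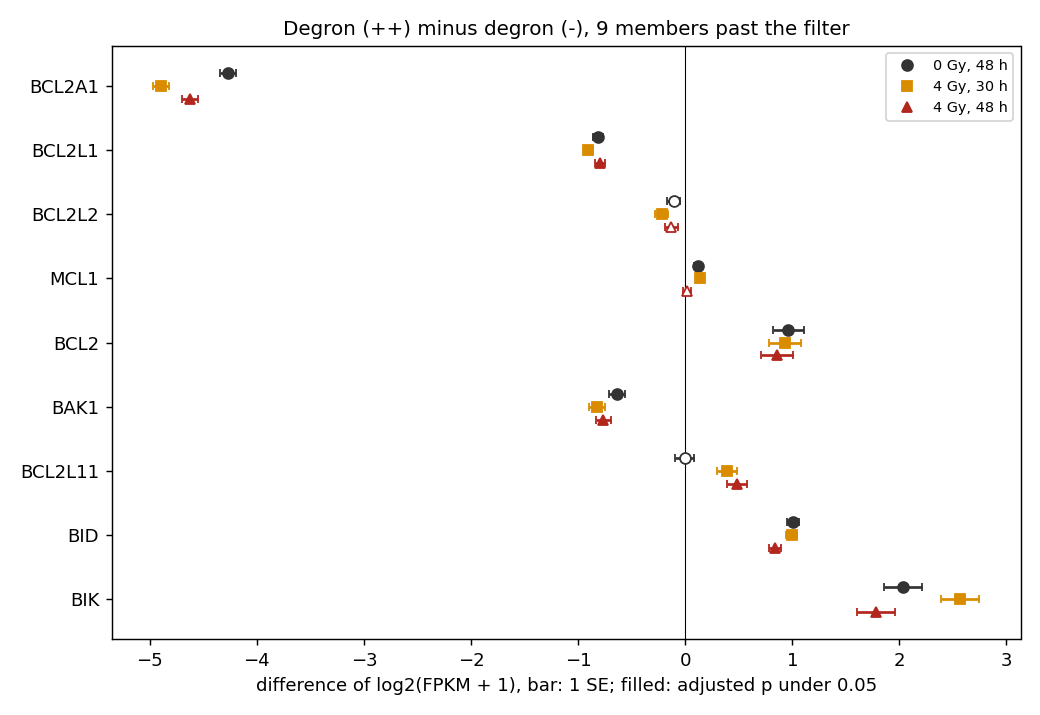
Difference between degron (++) and degron (−) for the 9 members tested (horizontal axis, log2(FPKM + 1); bars are 1 SE; filled symbols have an adjusted p under 0.05) at 0 Gy and 48 h (circles), 4 Gy and 30 h (squares) and 4 Gy and 48 h (triangles). BCL2A1 lies between -4.89 and -4.27 and BIK between 1.78 and 2.57, while MCL1 and BCL2L2 lie within 0.22 of 0.

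These counts were near the share of all genes that passed, and BCL2 and BCL2A1, which entered the test through 1 population each, had to add to them, so that the counts and medians over the 9 are a description only. At 0 Gy and 48 h, 7 of the 9 members tested passed the threshold (adjusted p under 0.05), 4 higher and 3 lower in degron (++), when 77.7% of the 12946 genes tested passed, 37.6% higher and 40.2% lower. At 4 Gy and 30 h all 9 tested passed, 5 higher and 4 lower, against 79.1% of all genes, 38.3% higher and 40.8% lower. At 4 Gy and 48 h it was 7, 4 higher and 3 lower, against 76.7% of all genes, 37.1% higher and 39.6% lower. Of the 9, 7 had no overlap between the 6 degron (++) and the 6 degron (−) libraries, 3 above and 4 below, as did 71.3% of all genes. The median absolute log2 difference was 0.81 over the 9 members and 0.51 over all genes at 0 Gy, 0.90 and 0.54 at 4 Gy and 30 h, and 0.80 and 0.48 at 4 Gy and 48 h. With TPM, the share of calls over all genes that were higher in degron (++) was 35.9% at 0 Gy, and 33.3% and 31.7% in the irradiated conditions at 30 and 48 h. With FPKM it was 48.3%, 48.5% and 48.3%, and the median log2 difference over all genes moved from -0.02 to -0.21 at 0 Gy with TPM. BCL2L1, BAK1, BID and BIK kept their direction and their call with TPM in all 3 conditions. So did BCL2 and BCL2A1, which had to differ, so that their kept calls are no support.

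Summed by role, the 5 pro-survival members held 170 to 181 FPKM in degron (++) and 240 to 268 in degron (−). The 5 pro-death members held 85.4 to 97.6 FPKM in degron (++) and 46.4 to 57.8 in degron (−). The ratio of the pro-survival to the pro-death sum, which no rescaling of a library changes, was 1.79 to 2.004 in degron (++) libraries and 4.55 to 5.40 in degron (−). Without BCL2A1 it was 4.17 to 4.87 in degron (−), so that the populations were apart with or without that gene. The size of the ratio depends on which genes are summed. With the 6 further pore formers and BH3-only genes of the family added to the pro-death sum (BAX, BOK, BBC3, PMAIP1, BAD and HRK, an alternative chosen after seeing the data), it was 0.672 to 0.744 in degron (++) libraries and 1.12 to 1.30 in degron (−). The mean ratio of degron (−) was then 1.76 times that of degron (++), beside 2.68 times with the 5 members alone. These sums describe RNA, in which the most abundant members weigh most, and are given with no test. BCL2L1 and MCL1 together made up 89.4% to 90.8% of the pro-survival sum in degron (++) and 81.9% to 85.1% in degron (−).

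Between single members, the ratio of BCL2L1 to BIK was 3.25 to 3.97 in degron (++) libraries and 20.5 to 55.6 in degron (−), and that of BCL2L1 to BID was 1.31 to 1.62 and 4.58 to 5.42. BCL2L1 to BAK1, 2 genes that were both lower in degron (++), gave 10.8 to 12.8 in each population. MCL1 to BCL2L11 was 8.79 to 11.7 in degron (++) libraries and 10.2 to 14.5 in degron (−), with overlap.

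**Figure D3:**
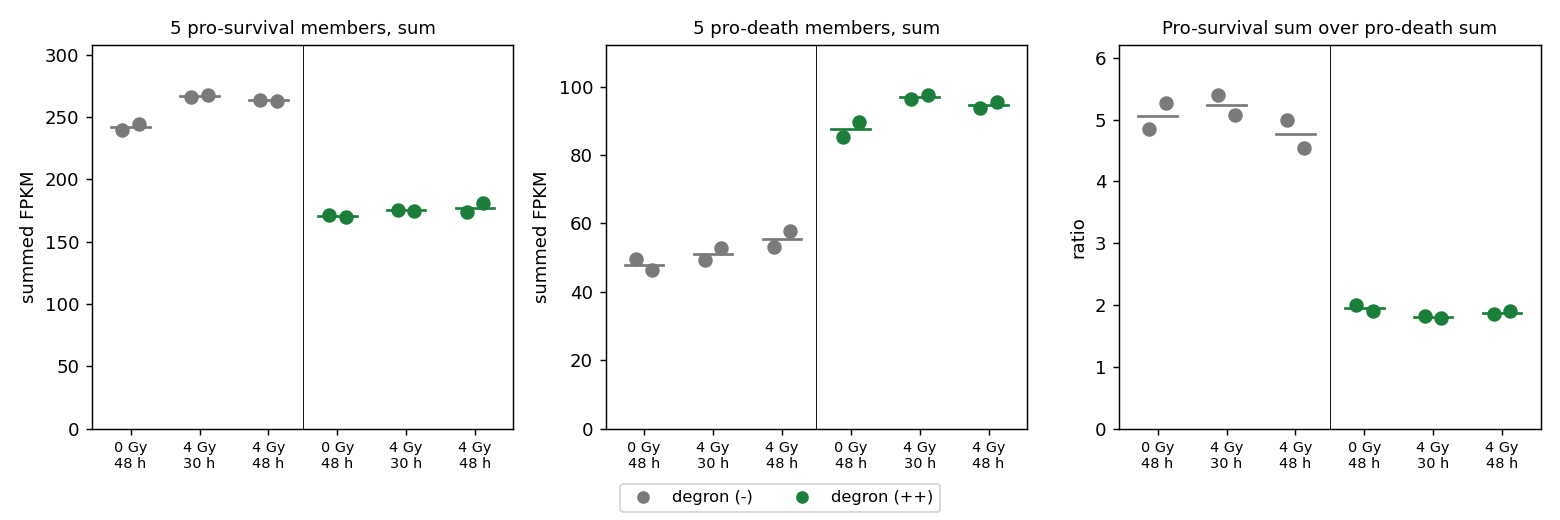
Summed level of the 5 pro-survival members and of the 5 pro-death members (FPKM) and the ratio of the 2 sums in each library (points), by group, with a line at the mean of 2 libraries, degron (−) in grey and degron (++) in green. The ratio is 1.79 to 2.004 in the 6 degron (++) libraries and 4.55 to 5.40 in the 6 degron (−) libraries.

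How the members responded to 4 Gy at 48 h was compared next, within each population. In degron (++), none of the 9 members passed limma's threshold, when 1.82% of all genes did, and 2 members had an unadjusted p under 0.05, as did 2282 of the 12946 genes. These were BCL2L11, at a log2 difference of 0.30 ± 0.09 (SE, adjusted p = 0.138), and BCL2L1, at 0.12 ± 0.04 (adjusted p = 0.228). BIK was 1.16 times its unirradiated level in this population (adjusted p = 0.62), and BID 1.04 times (adjusted p = 0.666).

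In degron (−), 1 of 9 members passed, when 4.73% of all genes did. BCL2A1 rose 1.30-fold, from 18.1 and 18.5 to 25.5 and 21.9 FPKM (log2 difference 0.35 ± 0.08 SE, adjusted p = 0.0351). The zeros in degron (++) enter the shared spread of BCL2A1 as libraries without variation, and with only the 4 libraries compared the adjusted p was 0.202. The call was lost in 16 of 18 alternatives, with adjusted p from 0.0274 to 0.202, and in 11 of the 12 fits that left out 1 library. It was kept with quantile normalization (adjusted p = 0.0274) and without replicate 2 (adjusted p = 0.0424) and lost without replicate 1 (adjusted p = 0.141) of degron (−) at 4 Gy and 48 h. Every other pro-death or pro-survival member missed the threshold. An unadjusted p under 0.05 in limma was found for 5 members, all higher with 4 Gy (BCL2A1, BID, MCL1, BAK1 and BIK), and for 2704 genes. BID was 1.17 times its unirradiated level, from 26.6 and 25.3 to 28.7 and 32.2 FPKM (adjusted p = 0.0505, and 0.019 without replicate 1 of degron (−) at 4 Gy and 48 h). BAK1 was 1.16 times (adjusted p = 0.175), MCL1 1.09 times (adjusted p = 0.101) and BIK 1.44 times (adjusted p = 0.192).

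Between 30 and 48 h in the groups given 4 Gy, no member passed in degron (++), when 1.21% of all genes did. An unadjusted p under 0.05 in limma was found for 2 members and 2050 genes, the members being BCL2L1 (log2 difference 0.11, adjusted p = 0.287) and MCL1 (-0.08, adjusted p = 0.315). In degron (−), 1 of 9 passed, when 7.18% of all genes did, and 2 members (BIK and BCL2A1) and 2890 genes had an unadjusted p under 0.05 in limma. BIK rose 1.96-fold, from 2.65 and 3.80 FPKM at 30 h to 5.43 and 7.20 at 48 h (log2 difference 0.80 ± 0.18 SE, adjusted p = 0.0318). The unirradiated libraries, at 5.19 and 3.55 FPKM, overlapped with the 30 h group and lay below the 48 h group. The call of BIK was lost in 7 of 18 alternatives, among them the fits without replicate 1 at 30 h (adjusted p = 0.181) or replicate 2 at 48 h (adjusted p = 0.209) of degron (−), without either replicate of degron (++) at 4 Gy and 30 h (0.0528) and without replicate 2 of degron (++) at 0 Gy (0.0501). BCL2A1 was 1.21 times higher at 30 h than at 48 h in degron (−) (log2 difference -0.27 ± 0.08 SE, adjusted p = 0.0681, and 0.0297 without replicate 1 at 48 h).

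Whether the 2 populations responded differently was tested with interaction terms. None of the 9 members passed for the dose, when 0.0772% of all genes did, and none for the time, when 3.23% did. At an unadjusted p under 0.05 in limma there were 3 members and 1758 genes for the dose, and 3 members and 2316 genes for the time. For the dose these were BCL2L11 (0.49, adjusted p = 0.175), BCL2A1 (-0.35, adjusted p = 0.207) and BID (-0.17, adjusted p = 0.366), and for the time BIK (-0.79, adjusted p = 0.143), BCL2A1 (0.27, adjusted p = 0.223) and MCL1 (-0.12, adjusted p = 0.254). BCL2A1 was listed at 0 in every degron (++) library. Its interactions therefore only repeat its degron (−) changes with the sign turned, and cannot show whether the populations responded differently. A member that passed in one population and not in the other is thus not shown to differ between them.

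**Figure D4:**
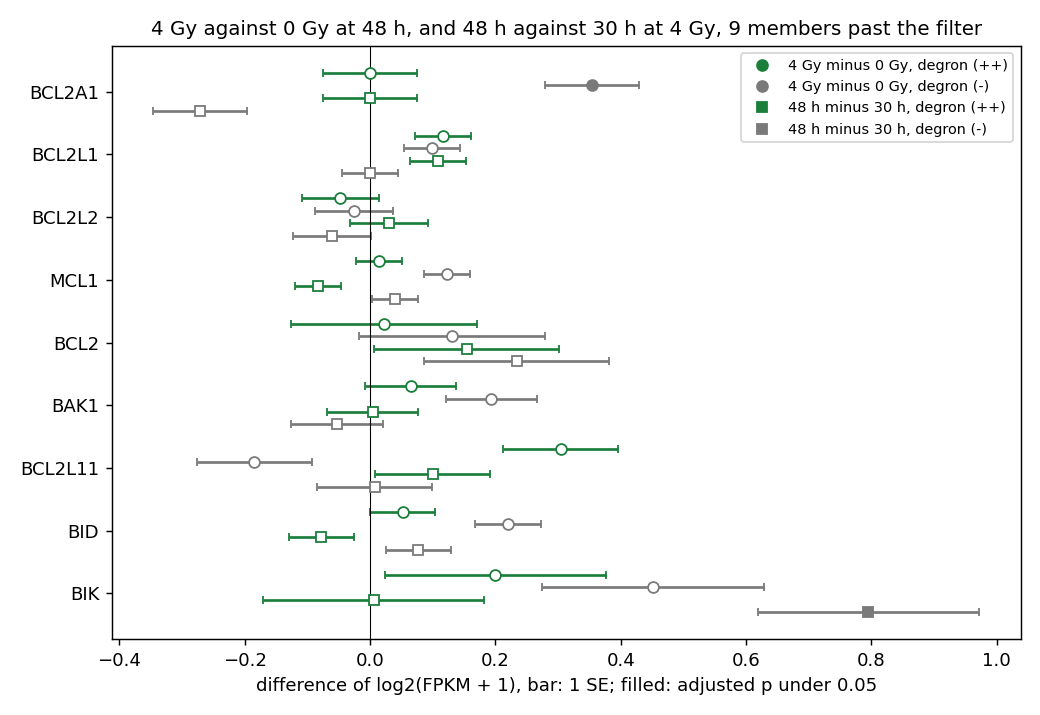
Difference between 4 Gy and 0 Gy at 48 h (circles) and between 48 h and 30 h at 4 Gy (squares) for the 9 members tested, in degron (++) (green) and degron (−) (grey), on the log2(FPKM + 1) scale with bars of 1 SE. Only BCL2A1 for the dose (0.35) and BIK for the time (0.80), both in degron (−), have filled symbols, which mark an adjusted p under 0.05.

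The family holds further genes. Of 15 others, 12 were tested. At 0 Gy and 48 h, 6 were higher and 3 lower in degron (++), when 37.6% of all genes were higher and 40.2% lower. The median log2 difference of the list was 0.11 against -0.02 over all genes. With TPM the counts were 4 and 4 and the median -0.09. BNIP3, a mitophagy receptor induced by hypoxia, was 25.9 to 32.6 FPKM in the degron (−) libraries and 0 to 0.145 in the degron (++) libraries (log2(FPKM + 1) difference -4.83 at 0 Gy, adjusted p = 3.2e-10), so that it was, like BCL2A1, near or at 0 in one population. HRK, a BH3-only protein of neurons, was 1.52 to 2.52 FPKM in degron (++) and 0 to 0.47 in degron (−) (adjusted p = 7.87e-05). BNIP3 passed the filter on low values only through degron (−) and HRK only through degron (++). Among the genes tested, both therefore had to differ. BAD, another BH3-only gene of the list, was lower in degron (++), at 23.0 to 34.3 FPKM against 42.6 to 49.2 in degron (−). Of the p53 targets in the family, PMAIP1, which encodes NOXA, a binder of MCL1, was 9.71 and 12.03 FPKM against 4.57 and 3.26 at 0 Gy and 48 h (2.78-fold, adjusted p = 1.66e-05) and passed in all 3 conditions. BAX, the partner of BAK1, was 78.9 and 86.5 FPKM in degron (++) against 81.4 in both degron (−) libraries (adjusted p = 0.864), and BBC3 passed at 0 Gy only (adjusted p = 0.0309).

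Downstream of the pore, cytochrome c and APAF1 build the apoptosome that activates caspase-9. All 11 genes of this list were tested. It also held genes that act at death receptors (FADD, CASP8, CASP10 and CFLAR), so that its counts mix roles. At 0 Gy and 48 h, 7 were higher and 1 lower in degron (++), when 37.6% of all genes were higher and 40.2% lower. The median log2 difference of the list was 0.22. With TPM 3 were higher and 2 lower and the median was 0.02. CYCS, which encodes cytochrome c, went against the larger count. It was 40.05 to 43.7 FPKM in degron (++) libraries and 49.0 to 54.2 in degron (−). CASP6, an executioner caspase, was 13.1 to 13.9 FPKM in degron (++) and 6.12 to 8.07 in degron (−), 2.12-fold higher at 0 Gy (adjusted p = 1.3e-05). CASP10, an initiator at death receptors, was 1.07 to 1.48 FPKM in degron (++) and 0.06 to 0.233 in degron (−) (log2(FPKM + 1) difference 1.13 at 0 Gy, adjusted p = 5.01e-06). CASP10 passed the filter on low values only through degron (++), so that among the genes tested it had to differ. APAF1 was 1.37 times higher in degron (++) at 0 Gy (adjusted p = 0.00067), and with TPM missed the threshold in every condition (adjusted p = 0.0565 at 0 Gy) and turned to -0.03 at 4 Gy and 48 h.

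Inhibitors of apoptosis bind caspases or steer death receptor signals. Of 9 genes of this list, antagonists included, 8 were tested. At 0 Gy and 48 h, 2 were higher and 6 lower in degron (++), when 37.6% of all genes were higher and 40.2% lower. The median log2 difference of the list was -0.36. The 2 higher were BIRC6 (mean 12.6 against 9.41 FPKM) and the antagonist HTRA2 (12.4 against 8.99). DIABLO, also an antagonist, was among the 6 lower (24.9 against 28.9), so that the counts mix opposite roles. BIRC7, one of the 6 lower, passed the filter on low values only through degron (−). BIRC3, a target of NF-kB like BCL2A1, was 8.91 and 8.33 FPKM in degron (++) against 37.8 and 42.2 in degron (−) at 0 Gy and 48 h (log2 difference -2.09 ± 0.09 SE, adjusted p = 4.96e-08). BIRC3 was also the only gene of these lists that passed for the dose in degron (++), where it rose 1.51-fold to 14.2 and 11.8 FPKM (adjusted p = 0.029). That call was lost in 8 of 18 alternatives (adjusted p from 0.0291 to 0.26), among them the fits without either replicate at 0 Gy (0.128 for each) or either replicate at 4 Gy and 48 h (0.104 and 0.0563) of degron (++), those without either replicate of degron (−) at 4 Gy and 30 h (0.0546 for each) and TPM (0.134). BIRC2, its neighbour on the chromosome, was 19.9 and 18.5 against 61.1 and 61.9 FPKM at 0 Gy (adjusted p = 2.48e-08), and XIAP, the direct caspase inhibitor, was 7.11 and 6.36 against 9.61 and 9.53 FPKM (adjusted p = 0.000335). All 3 were lower in degron (++) in all 3 conditions.

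The voltage-dependent anion channels sit in the membrane that BAK1 opens, and VDAC2 is known to recruit BAK1 to it. VDAC2 was 22.0 to 25.6 FPKM in degron (++) and 37.2 to 41.9 in degron (−), 1.75 times higher in degron (−) at 0 Gy (adjusted p = 3.84e-06). VDAC3 was 96.9 to 106 FPKM in degron (++) and 48.5 to 59.1 in degron (−) (1.92-fold at 0 Gy, adjusted p = 5.78e-07). VDAC1, the most abundant of the 3, was lower in degron (++) at 0 Gy (log2 difference -0.38, adjusted p = 1.84e-05) and at 4 Gy and 48 h (-0.22, adjusted p = 0.000721), with -0.06 at 4 Gy and 30 h (adjusted p = 0.224, and -0.34 with an adjusted p of 6.14e-05 with TPM).

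MCL1 and BIM are controlled to a large extent by their degradation in the proteasome, which RNA levels do not show. Of 8 ubiquitin ligases and deubiquitinases of MCL1 and BIM, 7 were tested. At 0 Gy and 48 h, 2 were higher and 4 lower in degron (++), when 37.6% of all genes were higher and 40.2% lower. The median log2 difference of the list was -0.33 (with TPM, none higher and 4 lower). The 2 higher were HUWE1 (mean 48.7 against 44.4 FPKM) and the deubiquitinase USP9X (15.9 against 12.4). Ligases and deubiquitinases are counted together here, so that the counts mix opposite roles. MARCH5, a ligase of the mitochondrial surface, was 8.46 to 9.71 FPKM in degron (++) and 15.3 to 17.9 in degron (−), 2.01 times higher in degron (−) at 0 Gy (adjusted p = 2.87e-07). USP13, a deubiquitinase of MCL1, was 8.22 and 8.11 FPKM in degron (−) and 4.84 and 5.07 in degron (++) at 0 Gy (adjusted p = 8.36e-06). BTRC, a substrate receptor of the SCF ligase, was 7.68 and 8.69 against 5.97 and 5.69 FPKM (adjusted p = 0.00143).

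Whether a member moved with the genes beside it was read from the 10 nearest tested genes, 5 on each side in the order of the RefSeq annotation of GRCh38.p14, at 0 Gy and 48 h. All 10 neighbours of BAK1 were lower in degron (++), with a median log2 difference of -0.74 beside -0.64 for BAK1 itself. As many neighbours in 1 direction were found around 2.30% of the 11047 genes placed, and a median as far from 0 around 10.4%. Of the 10 neighbours of BCL2L1, 7 were lower and none higher (median -0.77), and 7 neighbours of BCL2 were higher and 1 lower (median 0.79). As many in 1 direction were found around 32.6% of genes for each, and a median as far from 0 around 9.20% and 8.63%. BCL2 and PMAIP1 were among each other's neighbours. By contrast, BCL2A1, BID and BIK lay far from the medians of their neighbours, 0.11, -0.10 and 0.26, beside -4.27, 1.01 and 2.03 for the genes themselves. Single neighbours of BID and BIK were as high or nearly so, up to 0.96 and 2.04, whereas the lowest neighbour of BCL2A1 was at -0.86. Around BCL2L11, at -0.01, 6 neighbours were lower and 2 higher, and their median was -1.09, as far from 0 as that of 2.53% of genes, with as many in 1 direction around 53.3%.

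**Figure D5:**
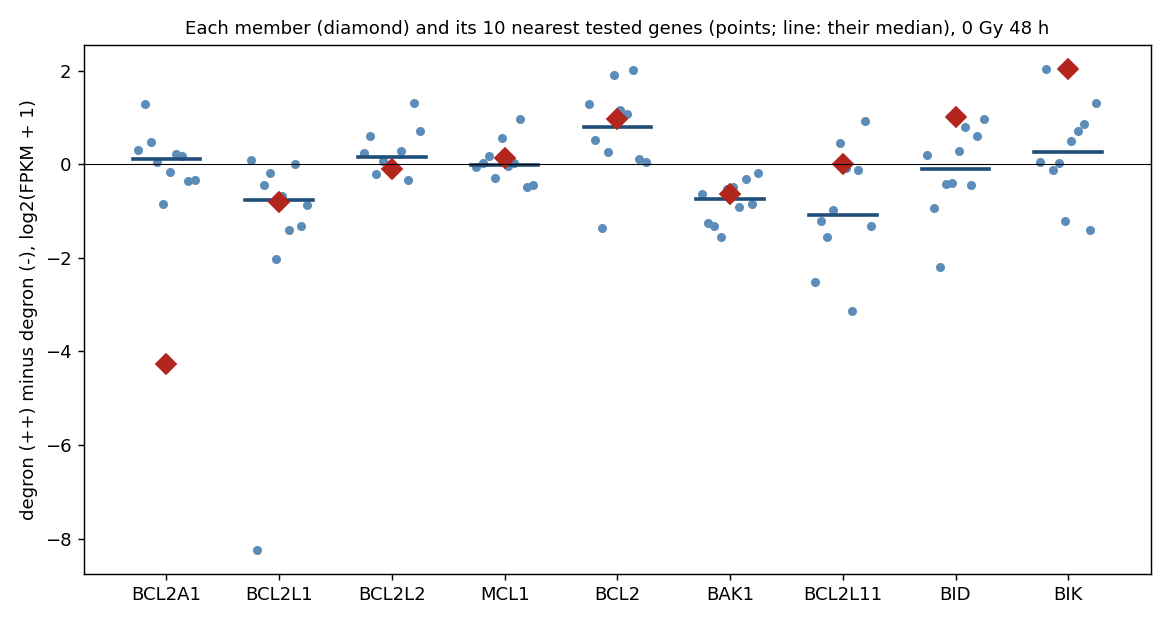
Difference between degron (++) and degron (−) at 0 Gy and 48 h (vertical axis, log2(FPKM + 1)) for each of the 9 members tested (red diamonds) and its 10 nearest tested genes along the chromosome (blue points, with a line at their median). BAK1 and BCL2L1 lie near the medians of their neighbours (-0.74 and -0.77), and BCL2A1 at -4.27 lies below all 10 of its neighbours.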

How the data were processed

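Total RNA of 12 PANC-1 samples was sequenced from stranded poly(A) libraries. The authors deposited FPKM per gene symbol and library, and the submitters' processing notes name TopHat2 2.1.1, Bowtie2 2.2.8, SAMtools 0.1.18, Cuffdiff 2.2.1 and build hg19. No counts were used, so depth is unknown, no interval for counting error is given, and an FPKM of 0 was read as listed at 0. From these values log2(FPKM + 1) was computed and fitted with limma 3.58.1 (lmFit, contrasts.fit, eBayes with trend) in R 4.3.3 for the 12946 genes that reached an FPKM of 1 in 2 or more libraries, with 6 group means over all 12 libraries and Benjamini-Hochberg adjustment over all genes tested (threshold 0.05). The procedure was also run on simulated data, with independent noise and a small set of genes changed in a single group. That run did not imitate the scaling, the zeros or the wide population difference of these data. Alternatives were a pseudocount of 0.1, no filter, TPM, quantile normalization, the replicate number as a block, only the libraries compared, and leaving out each library. A wider pro-death sum was added after seeing the data. The members and lists were chosen with earlier results of these data known. All members were named. Of the other lists, genes were named that passed for dose, time or interaction, or were among the 3 of their list with the largest change past the threshold at 0 Gy, with 1 direction and no overlap in all 3 conditions. BAX and BBC3 were named in addition, as were genes that went the other way in their list or show its makeup. Sequences came from GENCODE v29 on GRCh38, and gene order from RefSeq. Python 3.11.15 with pandas 2.3.3 and matplotlib 3.10.9 was used.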

Additional observations from a re-analysis of the deposited data

Results flagged for a closer look

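For BCL2L11 and the dose at 48 h, both degron (++) libraries at 4 Gy (8.63 and 7.85 FPKM) were above both unirradiated ones (6.38 and 6.57), whereas both degron (−) libraries at 4 Gy (6.02 and 5.21) were below both unirradiated ones (6.50 and 6.51). The log2 difference was 0.30 in degron (++) (adjusted p = 0.138) and -0.18 in degron (−) (adjusted p = 0.295), and the interaction was 0.49 ± 0.13 (SE) with an adjusted p of 0.175, from 0.146 to 0.388 over 18 alternatives, so that the limma test of the difference did not pass.

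For MCL1 and the time in the groups given 4 Gy, both degron (++) libraries at 48 h (75.8 and 75.1 FPKM) were below both at 30 h (78.9 and 81.3), whereas both degron (−) libraries at 48 h (73.8 and 75.6) were above both at 30 h (72.9 and 72.4). The interaction was -0.12 ± 0.05 on the log2 scale (SE, adjusted p = 0.254) and did not pass either.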

How the results depend on the processing

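BCL2L1, BAK1, BID and BIK kept their direction and call between the populations in all 3 conditions and all 18 alternatives. So did BCL2 and BCL2A1, but each passed the filter through 1 population and had to differ, so that their kept calls are no support. The count of members past the threshold for the dose in degron (−) went from 1 to 0 with a pseudocount of 0.1, with no filter, with TPM, with the replicate block and with only the libraries compared, and was 0 to 1 when 1 library was left out. For the time in degron (−) it went from 1 to 0 with no filter and with only the libraries compared, and was 0 to 2 when 1 library was left out. The cause was not tested. With 1 library left out, the counts between populations were 6 to 7 at 0 Gy, and with irradiation 8 to 9 at 30 h and 7 at 48 h, and a lone library was taken to vary like the other groups. MCL1 turned to -0.0842 at 0 Gy, -0.14 in the irradiated groups at 30 h and -0.25 at 48 h with TPM, the last with an adjusted p of 0.00888. In that last condition it was -0.0693 with quantile normalization and -0.0026 to 0.0319 with 1 library left out, below 0 without degron (−) replicate 1. Its call at 0 Gy was lost with quantile normalization (adjusted p = 0.105), with only the libraries compared (0.0653), and without degron (++) replicate 2 (0.0525) or degron (−) replicate 1 (0.0961), and that at 4 Gy and 30 h with quantile normalization (0.396). BCL2L11 at 0 Gy turned to 0.0619 with quantile normalization, and was -0.0241 to 0.0135 with 1 library left out, above 0 without degron (++) replicate 1. Of 630 values over 35 combinations of a member and a comparison, 587 kept direction and side of the threshold, 32 lost the call, 4 gained one and 7 changed sign. The 35 were a selection, namely all population comparisons, those past the threshold for dose or time, and some others picked by hand. They included the population comparisons of BCL2 and BCL2A1, which had to differ. Leaving out a library outside a comparison could not move its log2 difference. The counts therefore do not measure how firm the results are.

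Same-numbered replicates deviated together weakly if at all. The correlation of their deviations over 15 pairs of groups was -0.0381 to 0.122 (median 0.0404), with 2 of 15 above 0.1. In the main fit the numbers were therefore taken to name libraries only. The replicate block changed no call of a member other than that of BCL2A1 for the dose in degron (−) (adjusted p = 0.057). Over all genes, it took the limma calls for the dose from 236 to 125 in degron (++) and from 612 to 479 in degron (−).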
